A study of Rattus norvegicus with 7 samples.

Results

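Hox genes encode homeodomain transcription factors that mark position along the body and limb axes. In the deposited gene table of rat knee synovium, the genes whose name is Hox, a cluster letter from a to d and a number filled 33 of 20660 rows and stood for 32 symbols, since Hoxa11 was on 2 rows with different gene IDs. Of the 39 Hox symbols in RefSeq for the rat, 7 were not analysed here (Hoxa3, Hoxa5, Hoxa10, Hoxa13, Hoxc12, Hoxc13 and Hoxd12). The libraries came from 7 male SPF (specific pathogen free) rats aged 3 months, and the labels read as 1 rat per library; the strain is not given. In 4 rats (MIA 1 to MIA 4) the right knee had received 0.1 mL of MIA at 10 mg per kg after pentobarbital, a model of knee osteoarthritis, and tissue was taken 4 weeks later. MIA is not spelled out in the labels; in such models it usually stands for monosodium iodoacetate, which blocks glycolysis. The other 3 rats (control 2 to control 4, NC in the titles, where MIA is OA) were untreated, so the comparison holds the injection together with the compound. Which clusters and paralog groups the synovium expressed, and which differed after MIA, are the questions asked of these libraries.

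Mammalian Hox genes lie in 4 clusters, A to D, and genes in the same place of different clusters are paralogs that share a number. Low numbers are transcribed toward the head and high numbers toward the tail and the far end of the limb, an order that mirrors the order of the genes in each cluster. Fibroblasts of the adult body keep a Hox pattern that reflects where they came from, and in human joints synovial fibroblasts differ in HOX expression between joints of the arm and leg. Here paralogs 1 to 3 are called anterior, 4 to 8 central and 9 to 13 posterior.

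Library totals ran from 13870822 to 16261089 counts, and 13126 to 14335 genes reached 10 counts in a given library. Of 6 genes of the synovial lining, 6 had a mean of at least 1 FPKM in both groups, Prg4 (lubricin) among them. FPKM stands for fragments scaled to transcript length and sequencing depth. All 19 skeletal muscle genes found met this threshold in both groups too, so it does not identify the tissue. The lining genes took 0.176% to 0.392% of counts in control and 0.0459% to 0.604% in MIA. Transcripts of other tissues were present too, and their amount differed between the groups. The 19 skeletal muscle genes found of 24 listed took 14.2% to 16.4% of counts in the untreated rats and 0.0638% to 5.12% after MIA. The 12 adipocyte genes took 0.496% to 0.868% and 0.0764% to 0.239%. Car3 had the most counts of that list in each control library, at 48521, 59945 and 117179. The 16 general fibroblast genes took 0.912% to 1.55% and 1.73% to 2.57%, and the 10 cartilage genes 0.0315% to 0.0519% and 0.0321% to 0.451%. The 6 macrophage genes took 0.0137% to 0.0207% and 0.0452% to 0.109%, with 5 of 6 higher and a median log2 change of 1.92. Of the bone genes 2 of 6 tested were higher, with a median of 1.17. Over all tested genes 21.3% were higher, with a median of 0.07. Whether these differences had a part in any Hox result was not tested, and in bulk tissue fewer cells of a type and less RNA per cell cannot be told apart.

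In the untreated synovium libraries Hox genes of the B, C and D clusters and Hoxa4 of cluster A were expressed, with Hoxc10 far above the others. At a threshold of 1 FPKM in every control library, 15 of 33 rows were expressed: Hoxa4, 6 HoxB genes (Hoxb3, Hoxb4, Hoxb5, Hoxb6, Hoxb7 and Hoxb9), 5 HoxC genes (Hoxc4, Hoxc6, Hoxc9, Hoxc10 and Hoxc11) and 3 HoxD genes (Hoxd4, Hoxd8 and Hoxd9). Hoxc10, which in the mouse helps to pattern the lumbar cord and hindlimb, was at 19.9, 23.0 and 26.7 FPKM in control 2, 3 and 4, and it was the top Hox gene in each of these libraries. The next 6 genes in mean control level were Hoxc11 (6.38 ± 0.304 FPKM; SD, n = 3), Hoxb6 (6.37 ± 3.51), Hoxd8 (6.29 ± 2.26), Hoxc9 (6.27 ± 1.79), Hoxc6 (5.92 ± 1.21) and Hoxb7 (5.43 ± 3.12). The gaps between neighbours in that order were smaller than their spread between rats.

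In MIA libraries 12 rows reached 1 FPKM in every library, 11 of them expressed in both groups by the same threshold. Hoxa4, Hoxb4, Hoxb5 and Hoxc11 met it in the control group alone, and Hoxb8 in the MIA group alone. Hoxb4 missed it only in MIA 4 (0.977 FPKM) and Hoxb5 only in MIA 3 (0.953 FPKM). The FPKM of both genes overlapped between the groups. The top Hox gene was Hoxd8 in MIA 1, 3 and 4 and Hoxd9 in MIA 2, and Hoxc10 was the 4th in mean MIA level (7.71 ± 1.259 FPKM; SD, n = 4) behind Hoxd8 (10.6 ± 2.83), Hoxd9 (8.21 ± 4.56) and Hoxb7 (7.996 ± 2.65). The low end of the order was alike in both groups: 11 rows, among them Hoxa6, Hoxa9, both Hoxa11 rows, Hoxb13, Hoxd1, Hoxd11 and Hoxd13, had at most 13 counts in any library and at most 0.699 FPKM. These rows were too low to be tested. Hoxd1, for example, had 0, 0 and 0 counts in the control libraries and 2, 1, 1 and 3 in MIA 1 to 4, which is at the limit of counting, and Hoxd11 had 3, 2 and 0 counts in control and 0 in each MIA library.

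**Figure D1:**
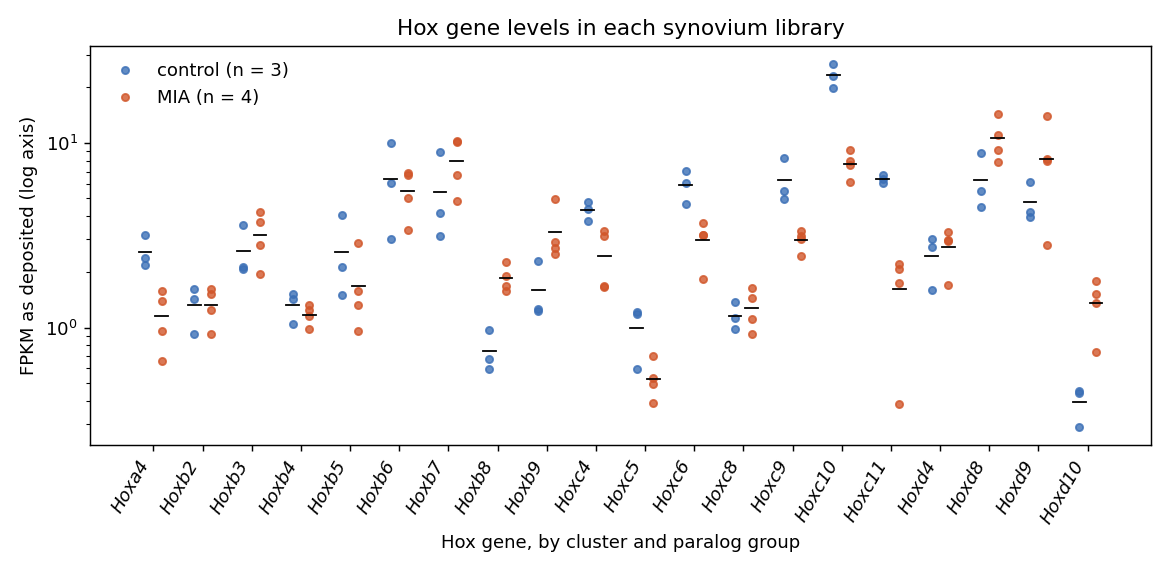
Deposited FPKM (log axis) of the 20 Hox genes that had a mean of at least 1 FPKM in a group or passed the test, one point per library and a line at the group mean, for 3 control and 4 MIA libraries. Hoxc10 stands highest in control (19.9 to 26.7 FPKM) and lies below every control library in MIA; the points of Hoxb3, Hoxb6, Hoxb7 and Hoxd4 overlap between the groups.

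Genes of the HoxC cluster were lower in MIA synovium, and 1 HoxD gene was higher. Of the 22 rows that passed the filter on low counts, 7 were lower and 1 higher when adjusted p-values under 0.05 were called (edgeR's quasi-likelihood F test, with the Benjamini-Hochberg adjustment over 14054 genes): Hoxc4, Hoxc5, Hoxc6, Hoxc9, Hoxc10, Hoxc11 and Hoxa4 fell and Hoxd10 rose. The share lower was 31.8% of the tested Hox rows against 19.6% of all tested genes, and the share higher 4.55% against 21.3%; the share called in either direction was 36.4% against 40.9%. Groups did not overlap for 11 of 22 rows, 50% against 49.2% of all genes, with 9 lower and 2 higher in MIA (40.9% against 24.4% and 9.09% against 24.8%). The median log2 change, MIA minus control, was −0.52 over the tested Hox rows and 0.07 over all tested genes. By position, 4 of 12 tested central genes and 3 of 6 posterior genes fell, 1 posterior gene rose, and none of the 4 tested anterior genes passed.

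**Figure D2:**
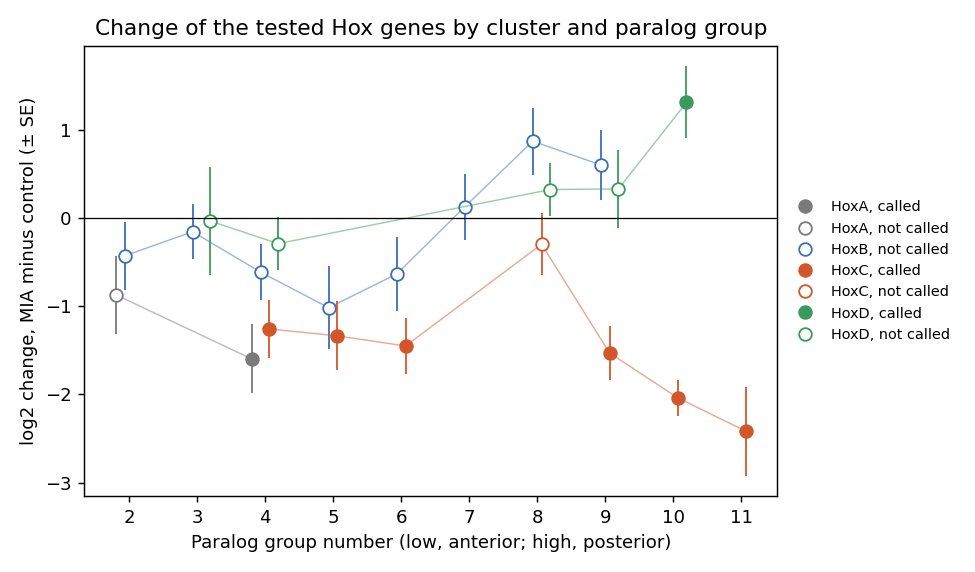
Fitted log2 change, MIA minus control, with its SE for the 22 tested Hox genes against paralog group number, coloured by cluster; filled points passed the threshold. In cluster C the called genes lie between −1.257 and −2.42 and Hoxc8 at −0.29, while Hoxd10 stands at 1.32; Hoxc8, Hoxb2, Hoxb3, Hoxd3 and Hoxd4 change sign with library totals, and Hoxb7, Hoxb8, Hoxb9, Hoxd8 and Hoxd9 with scaling on fibroblast genes.

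For the called genes, RefSeq (build GRCr8) gave a promoter window, 250 bases before to 50 after the start, for Hoxa4, Hoxc4 and Hoxd10, and these are shown because they set a pair of genes that fell beside the one that rose. Windows were matched by symbol for 16 of the Hox genes. Capitals mark, on either strand, an E-box (CACGTG), a GC box (GGGCGG) or a CCAAT box (CCAAT); the TATA box (TATAAA), a Pbx-Hox motif (TGATNNAT) and a homeodomain core (TTAATTA) were searched as well and are in none of the 3. No marked motifs overlap.
Hoxa4, chr4:82622253-82622552, minus strand: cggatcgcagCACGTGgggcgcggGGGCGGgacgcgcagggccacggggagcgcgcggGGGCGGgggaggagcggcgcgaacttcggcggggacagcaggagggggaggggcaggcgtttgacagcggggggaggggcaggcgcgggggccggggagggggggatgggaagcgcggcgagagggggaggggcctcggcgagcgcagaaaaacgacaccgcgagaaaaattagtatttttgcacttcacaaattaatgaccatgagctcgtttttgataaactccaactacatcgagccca
Hoxc4, chr7:136048809-136049108, plus strand: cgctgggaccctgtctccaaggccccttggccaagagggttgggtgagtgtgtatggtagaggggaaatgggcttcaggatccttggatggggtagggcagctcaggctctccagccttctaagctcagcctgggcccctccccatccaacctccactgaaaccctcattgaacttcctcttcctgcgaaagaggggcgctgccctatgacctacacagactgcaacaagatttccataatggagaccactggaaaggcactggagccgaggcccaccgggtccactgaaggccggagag
Hoxd10, chr3:80001697-80001996, plus strand: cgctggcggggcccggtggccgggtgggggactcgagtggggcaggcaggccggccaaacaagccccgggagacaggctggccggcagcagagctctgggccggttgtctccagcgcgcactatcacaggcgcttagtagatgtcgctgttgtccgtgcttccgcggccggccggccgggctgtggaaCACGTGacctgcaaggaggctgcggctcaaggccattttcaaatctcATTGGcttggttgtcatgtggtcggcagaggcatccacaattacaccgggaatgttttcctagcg
The Hoxa4 and Hoxd10 windows are rich in CpG, with 34 and 24 CpG against a median of 7 over 33469 promoter windows, and the Hoxc4 window holds 6. An E-box was in 8 of the 16 Hox windows and in 6.42% of all windows, a CCAAT box in 10 of 16 and 37.5%, a GC box in 10 of 16 and 33.1%, and the Pbx-Hox motif in 4 of 16 and 9.10%. A TATA box was in 2 of 16 and 14.2%, and the homeodomain core in 0 of 16 and 3.02%. These are matches of letters in a later build than the one the counts were made on. The E-box and the GC box each hold a CpG, and all Hox windows but that of Hoxc4 held more CpG than the median of 7. Whether CpG content had a part in the motif shares was not tested. Apart from Hoxb1 and Hoxc4, the windows were of clusters A and D.

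All 3 posterior genes of cluster C that were analysed fell, and Hoxc11 and Hoxc10 had the most negative log2 changes of the 22 tested rows. Hoxc10 (ENSRNOG00000016149) was at 39.8, 50.5 and 60.2 CPM in the libraries control 2 to 4 and at 13.6, 9.96, 11.1 and 14.2 CPM in the libraries MIA 1 to 4, where CPM is the count scaled to a library size corrected by the TMM factor. Every MIA library was below every control library, and the gene was 4.10-fold lower (log2 change −2.04 ± 0.20 SE, adjusted p = 0.000902). Hoxc10 kept its call in all 20 alternative analyses, with log2 changes from −3.11 to −1.48.

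Hoxc11 (ENSRNOG00000016141), a gene of the mouse hindlimb bud, was at 6.45, 7.48 and 6.96 CPM in control and at 1.92, 0.319, 1.30 and 1.64 CPM in MIA 1 to 4. The groups did not overlap, MIA 2 was the lowest with 5 counts, and the gene was 5.34-fold lower (−2.42 ± 0.51, adjusted p = 0.00729). Hoxc9 (ENSRNOG00000016199), which in mice sets the thoracic identity of motor neurons, was at 5.05, 6.16 and 9.50 CPM in control and at 2.10, 2.74, 2.33 and 2.38 CPM in MIA. Its MIA libraries lay close together below all controls, 2.89-fold lower (−1.53 ± 0.31, adjusted p = 0.00642). For Hoxc9 and Hoxc11 a fit with the skeletal muscle level as a covariate ended the call, at −1.68 (adjusted p = 0.0591) and −1.04 (0.241). The value for Hoxc10 was −1.76 (0.0163). The mean log2 CPM of the muscle list was 12.1 to 12.6 in control and 3.83 to 10.1 in MIA. Since the groups do not overlap in it, a kept or lost call in this fit cannot tell muscle level from group.

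The central HoxC genes fell as well, apart from Hoxc8. Hoxc6 (ENSRNOG00000016442), one of the Hox genes of the brachial region, was at 6.38, 9.16 and 10.9 CPM in control and at 3.71, 2.04, 3.20 and 3.91 CPM in MIA. It was 2.73-fold lower with no overlap (−1.45 ± 0.32, adjusted p = 0.00891), and at −0.86 with the muscle covariate (adjusted p = 0.208). Hoxc5 (ENSRNOG00000016598) was at 3.57, 4.05 and 2.05 CPM in control and at 1.38, 1.21, 0.867 and 1.64 CPM in MIA. All MIA libraries were below the controls, control 4 being the nearest (−1.33 ± 0.39, adjusted p = 0.0262). Hoxc4 (ENSRNOG00000016613), whose promoter window is printed above, was at 10.1, 12.1 and 9.75 CPM in control and at 3.23, 5.87, 2.82 and 5.91 CPM in MIA. It was 2.39-fold lower without overlap (−1.257 ± 0.33, adjusted p = 0.0165).

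The calls of Hoxc4 and Hoxc5 were the less stable ones. Without control 3 the adjusted p was 0.0685 for Hoxc4 and 0.115 for Hoxc5, and without control 2 it was 0.081 for Hoxc5; with library totals the values were −0.82 (0.0716) and −0.91 (0.091), with the muscle covariate −1.67 (0.0542) and −1.34 (0.184), and with the adipocyte covariate −1.18 (0.0518) and −1.37 (0.0641). With limma on log2(FPKM + 1) Hoxc5 was at −0.37 (0.0886). In the RefSeq models the Hoxc6 gene spans Hoxc4 and Hoxc5, so counts of these 3 genes may be shared or dropped where they overlap. Hoxc8 (ENSRNOG00000028619), which lies between Hoxc6 and Hoxc9 in the cluster, was at 2.66, 2.55 and 3.69 CPM in control and at 3.29, 1.79, 1.95 and 2.64 CPM in MIA. Its groups overlapped and it did not pass (−0.29 ± 0.35, adjusted p = 0.529). Across the 7 HoxC genes the log2 change ran lower with rising paralog number (Spearman rho −0.79 over 7 genes, which share libraries and neighbouring DNA).

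Of cluster A, 2 of 8 rows could be tested. Hoxa4 (ENSRNOG00000027365), a gene of the cervical and thoracic vertebral region in mice, was at 3.01, 2.29 and 2.54 CPM in control and at 0.778, 0.511, 0.975 and 1.16 CPM in MIA. The groups did not overlap and it was 3.02-fold lower (−1.60 ± 0.39, adjusted p = 0.0134). The call ended without control 2 (adjusted p = 0.0513), without control 4 (0.0515), with the adipocyte covariate (−1.49, 0.0603) and with the muscle covariate (−0.98, 0.27). RefSeq's Hoxa3 model spans Hoxa4, so its counts may be affected by the overlap. Hoxa2, known for its part in the second branchial arch, was at 2.38, 1.32 and 1.06 CPM in control and at 0.539, 1.02, 0.921 and 1.003 CPM in MIA. Every MIA library was below the controls, by a small margin, and the gene did not pass (−0.87 ± 0.45, adjusted p = 0.15).

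None of the 8 tested HoxB genes passed, and their log2 changes ran from −1.01 at Hoxb5 to 0.88 at Hoxb8. Hoxb8, a gene of myeloid progenitors and microglia in mice, was at 1.05, 0.704 and 0.819 CPM in control and at 1.74, 1.47, 1.25 and 1.90 CPM in MIA. The groups did not overlap, with a log2 change of 0.88 ± 0.38 (adjusted p = 0.0983), and the adjusted p was 0.027 when library totals were used and 0.00826 for limma on log2(FPKM + 1), while scaling on fibroblast genes gave −0.14 (0.808). The macrophage share of counts was also higher in every MIA library than in any control, and its part in the Hoxb8 values was not tested. Hoxb9, which with its paralogs shapes the ribs in mice, was at 2.38, 1.41 and 1.47 CPM in control and at 2.40, 2.11, 2.22 and 4.01 CPM in MIA. Control 2 reached into the MIA range and MIA 4 stood apart (0.61 ± 0.40, adjusted p = 0.248), and limma on log2(FPKM + 1) gave an adjusted p of 0.0436.

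Hoxb7 had the highest level of the cluster in CPM: 13.1, 6.69 and 5.16 CPM in control and 6.05, 7.98, 11.0 and 11.4 CPM in MIA. Its groups overlapped widely (0.13 ± 0.37, adjusted p = 0.802). Hoxb6, expressed in lateral mesoderm in the mouse embryo, was at 7.5, 5.02 and 2.54 CPM in control and at 2.16, 4.09, 2.76 and 3.96 CPM in MIA (−0.63 ± 0.42, adjusted p = 0.26). Hoxb5, which acts in neural crest of the gut in mice, was at 6.94, 3.96 and 2.87 CPM and at 1.92, 2.17, 1.19 and 3.8 CPM (−1.01 ± 0.47, adjusted p = 0.119). For Hoxb5, Hoxb6 and Hoxb7 control 2 was the highest control, and without MIA 4 the adjusted p of Hoxb5 was 0.0491 (−1.38).

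The anterior HoxB genes and Hoxb4 did not pass either. Hoxb4, a gene of blood stem cells, was at 2.80, 3.26 and 2.29 CPM in control and at 1.92, 2.11, 1.79 and 1.48 CPM in MIA. The groups did not overlap, with MIA 2 nearest to the controls (−0.61 ± 0.32, adjusted p = 0.159). Hoxb3 was at 8.48, 5.55 and 5.57 CPM in control and at 3.95, 5.36, 6.50 and 7.71 CPM in MIA, and Hoxb2, which acts in the hindbrain, at 1.68, 2.11 and 1.23 CPM and at 1.258, 1.47, 1.41 and 0.844 CPM. Both overlapped (adjusted p = 0.718 and 0.404). Across the 8 HoxB genes, which also share libraries and neighbouring DNA, the Spearman rho of log2 change with paralog number was 0.55.

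In cluster D, Hoxd10 was the one Hox gene that rose. Hoxd10 (ENSRNOG00000001581), which in mice acts with Hoxc10 in lumbar motor neurons and the hindlimb, was at 1.12, 0.792 and 1.23 CPM in control and at 1.56, 2.74, 2.76 and 3.43 CPM in MIA. The groups did not overlap, MIA 1 was the nearest to the controls, and the gene was 2.49-fold higher (1.32 ± 0.41, adjusted p = 0.0328). The call is a weak one: it ended when any one library other than MIA 1 was left out (adjusted p from 0.0508 to 0.126), with limma-voom (0.0617), without a filter (0.0595), with the muscle covariate (0.16) and with scaling on fibroblast genes, where the log2 change was 0.29 (0.644). Its level was low, with 9 to 16 counts per control and 26 to 65 per MIA library.

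The 4 other tested HoxD genes did not pass. Hoxd9, a limb gene of the posterior group, was at 12.3, 9.24 and 8.93 CPM in control and at 4.73, 13.2, 11.7 and 21.5 CPM in MIA. The MIA libraries spread over both sides of the controls, with MIA 1 lowest and MIA 4 highest (0.33 ± 0.44, adjusted p = 0.567). Hoxd8 was at 8.13, 4.58 and 5.73 CPM in control and at 7.19, 5.94, 7.47 and 10.3 CPM in MIA (0.33 ± 0.30, adjusted p = 0.403). Hoxd4 was at 9.04, 5.28 and 9.17 CPM and at 4.31, 7.28, 6.45 and 7.65 CPM (−0.29 ± 0.30, adjusted p = 0.474). Hoxd3, with values from 0.650 to 3.75 CPM, also overlapped (adjusted p = 0.973). MIA 4 held the highest MIA value of Hoxd3, Hoxd4, Hoxd8, Hoxd9 and Hoxd10. The Spearman rho of log2 change with paralog number was 0.90 over the 5 HoxD genes, which share libraries and neighbouring DNA. Of these genes only Hoxd10 passed, and Hoxd3 and Hoxd4 changed sign with library totals.

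The make-up of the Hox transcripts differed accordingly. Cluster C supplied 42.1%, 58.5% and 64.0% of the summed Hox FPKM in the controls and 35.4%, 25.0%, 25.8% and 24.6% in MIA 1 to 4. Cluster D supplied 19.4%, 13.8% and 15.6%, and then 27.1%, 32.5%, 32.7% and 37.1%. Cluster B supplied 32.4%, 23.6% and 16.2% in control and 33.4% to 38.9% in MIA, and cluster A at most 6.02% of any library. In FPKM no cluster's shares overlapped between the groups, although for cluster B (32.4% against 33.4%) and cluster A (4.13% against 4.06%) the margin was narrow. As shares of summed counts those of cluster A overlapped, at 4.59%, 3.11% and 3.04% in control and 2.57% to 3.23% in MIA. Shares of a sum move together: Hoxc10 alone was 19.7% to 31.7% of the sum in control and 9.42% to 14.4% in MIA. The sums themselves overlapped in FPKM, at 82.5 to 101 in control and 55.4 to 95.2 in MIA. In TMM-scaled CPM they did not, at 147 to 159 in control and 72.3 to 117 in MIA. By position, posterior genes supplied 40.4%, 50.2% and 55.8% in control and 34.3% to 37.1% in MIA.

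**Figure D3:**
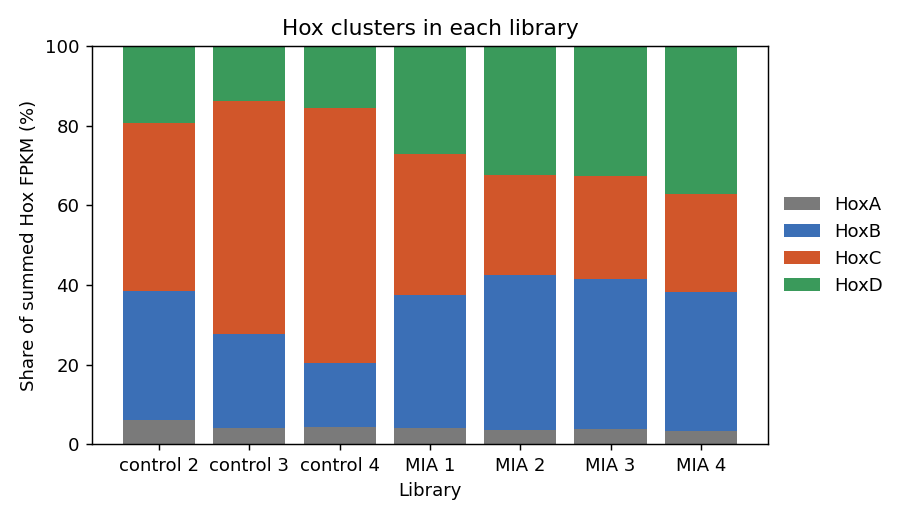
Share of the summed Hox FPKM (percent) supplied by each cluster in each of the 7 libraries, as stacked bars from 0 to 100. Cluster C takes 42.1% to 64.0% of the control bars and 24.6% to 35.4% of the MIA bars, and cluster D 13.8% to 19.4% and 27.1% to 37.1%.

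The ratio of a gene to its paralog within the same library does not depend on how libraries are scaled. Ratios were formed for the 17 pairs of tested genes that share a paralog number, with 0.5 added to each count, and tested after their values were seen by an exact two-sided permutation test over the 35 assignments of the libraries, which cannot go below p = 0.0286. Hoxc10 had 34.5, 60.5 and 47.5 counts per count of Hoxd10 in the controls and 8.58, 3.60, 3.99 and 4.11 in MIA 1 to 4. The shift was −3.28 on the log2 scale, without overlap (exact p = 0.0286, adjusted over 17 pairs 0.0971). Hoxc9 had 2.10, 4.27 and 6.30 counts per count of Hoxb9 in control and 0.876, 1.30, 1.05 and 0.595 in MIA, a shift of −2.06 without overlap (exact p = 0.0286, adjusted 0.0971).

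Shifts without overlap were also found for Hoxc8 to Hoxb8 (−1.17), Hoxc4 to Hoxd4 (−1.05) and Hoxd4 to Hoxa4 (1.36), each at the same exact p of 0.0286 and adjusted p of 0.0971. Hoxd8 to Hoxb8 did not overlap either (−0.51, exact p = 0.0571, adjusted 0.162). Of the 10 pairs with a HoxC gene, 9 had a lower mean ratio in MIA, 4 of them without overlap. The exception was Hoxc4 to Hoxa4, at 0.31. Some pairs share a gene, and 6 of the 7 HoxC genes were called lower from the same counts. The lower ratios are therefore not separate evidence. Of all single genes tested, 49.2% did not overlap between the groups, and no such share was computed for ratios. None of the 17 pairs passed after adjustment. With no p under 0.0286, a pair could pass only if many of the 17 pairs had that smallest p. Hoxc9 to Hoxd9 was at −1.64 (exact p = 0.0857), where MIA 1, with a ratio of 0.447, lay within the control range of 0.413 to 1.06.

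**Figure D4:**
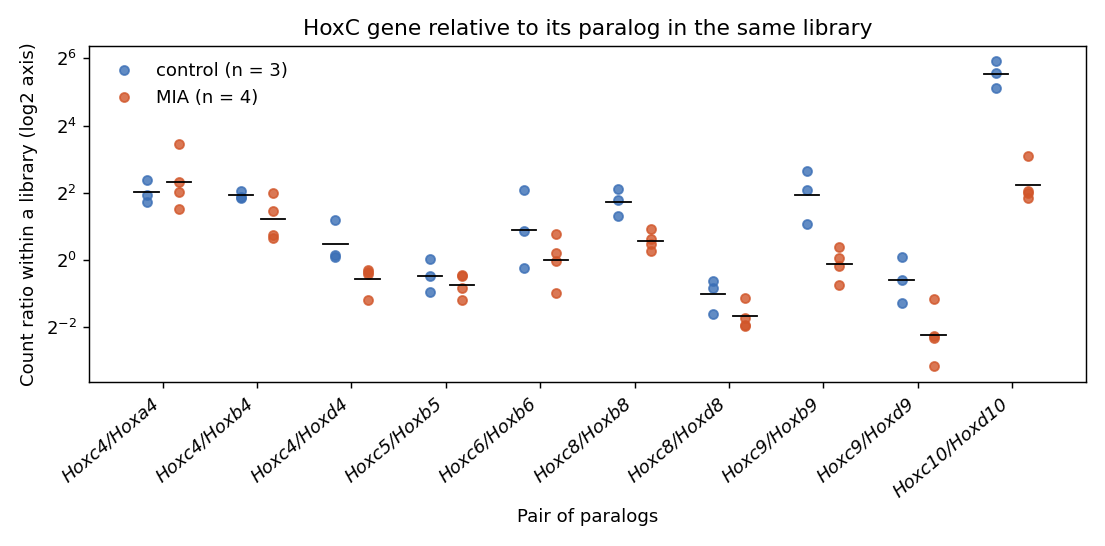
Count ratio of each HoxC gene to a paralog in the same library (log2 axis) for 10 pairs, one point per library and a line at the geometric mean, in 3 control and 4 MIA libraries. Hoxc10 over Hoxd10 runs from 34.5 to 60.5 in control and from 3.60 to 8.58 in MIA; the Hoxc5 over Hoxb5 points overlap.

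Apart from Hoxc8, the HoxC genes were lower in every MIA library than in any control, as the muscle and adipocyte shares were. The mean log2 CPM of the adipocyte list did overlap, at 4.53 to 7.27 in control and 4.26 to 5.35 in MIA. Whether those shares had a part in the HoxC levels was not tested. Within the MIA group the muscle list took 2.66%, 0.0638%, 5.12% and 2.94% of counts in MIA 1 to 4, where Hoxc10 was at 13.6, 9.96, 11.1 and 14.2 CPM. MIA 2, with the least muscle RNA, had the lowest MIA value of Hoxc10, Hoxc11 and Hoxc6, but the highest of Hoxc9 and the second highest of Hoxc4. MIA 3, with the most muscle RNA, had the lowest MIA value of Hoxc4 and Hoxc5 and the second lowest of Hoxc10. Without MIA 2 the log2 change was −1.94 for Hoxc10, −2.09 for Hoxc11 and −1.28 for Hoxc6, each called. Of the muscle genes 6 of 19 tested were lower and none higher, with a median log2 change of −3.03, where 19.6% of all tested genes were lower and 21.3% higher. Of the adipocyte genes 3 of 12 were lower, a share near that of all genes, and of the fibroblast genes 9 of 16 were higher and 1 lower, with a median of 1.10.

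**Figure D5:**
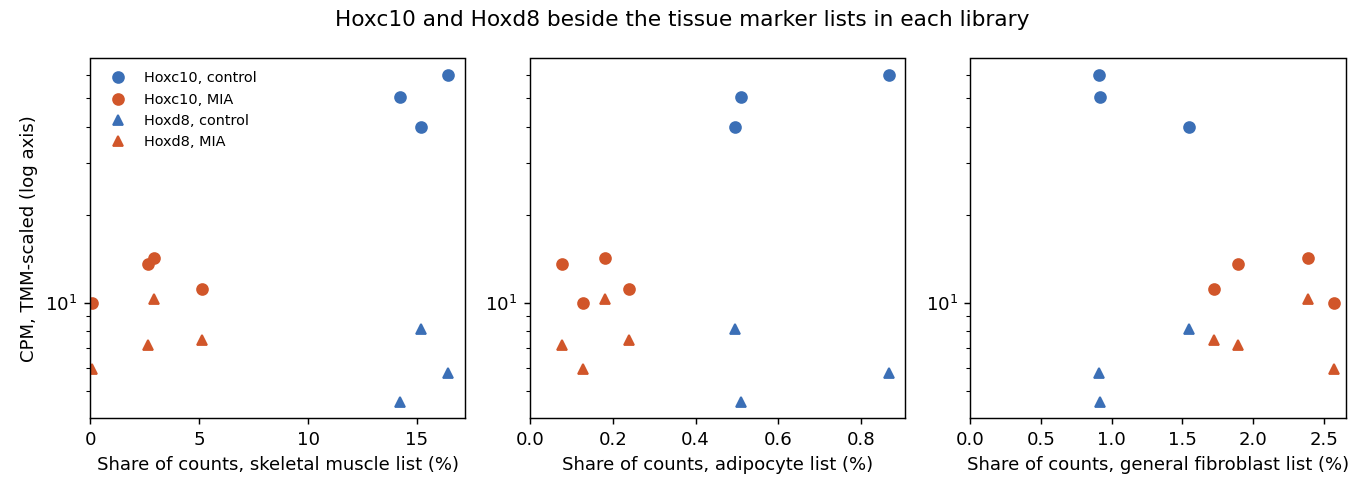
TMM-scaled CPM (log axis) of Hoxc10 (circles) and Hoxd8 (triangles) in each library against the share of counts taken by the skeletal muscle, adipocyte and general fibroblast lists, control in blue and MIA in orange. The controls sit at 14.2% to 16.4% muscle and 39.8 to 60.2 CPM of Hoxc10, the MIA points at 0.0638% to 5.12% and 9.96 to 14.2 CPM; Hoxd8 overlaps between the groups.

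Hox proteins bind DNA together with TALE homeodomain cofactors of the Pbx, Meis and Pknox families, and 1 of 8 tested cofactor genes was lower and 1 higher (25.0% called, against 40.9% of all genes; median log2 change −0.13, against 0.07). Pknox2 was at 37.2, 45.9 and 54.3 CPM in control and at 9.94, 12.4, 14.5 and 11.8 CPM in MIA. Those groups were well apart (−1.91 ± 0.19, adjusted p = 0.000902). Pbx3 was at 15.8, 17.8 and 15.4 CPM in control and at 29.7, 42.3, 23.0 and 32.7 CPM in MIA, 1.96-fold higher (0.97 ± 0.22, adjusted p = 0.0102), although scaling on fibroblast genes gave −0.13 (0.686) and the muscle covariate 0.50 (0.213). Meis2 did not pass (0.81 ± 0.32, adjusted p = 0.0706), and did with library totals (0.0115), DESeq2 (0.0412) and limma on log2(FPKM + 1) (0.00801) and log2(FPKM + 0.1) (0.00909), while scaling on fibroblast genes gave −0.28 (0.584).

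Of 17 tested limb patterning factors, 6 rose and 3 fell (52.9% called, against 40.9% of all genes, of which 21.3% were higher and 19.6% lower; median log2 change 0.27, against 0.07). Prrx1, a homeobox gene of limb mesenchyme, was at 22.2, 21.3 and 23.3 CPM in control and at 69.5, 63.6, 62.8 and 54.4 CPM in MIA (1.49 ± 0.15, adjusted p = 0.000902), but at 0.46 with scaling on fibroblast genes (adjusted p = 0.202). Meox1, a homeobox gene of the somites, was 6.72-fold higher (2.75 ± 0.48, adjusted p = 0.00371), and Tbx15, a T-box gene of limb and adipose tissue, 2.70-fold lower (−1.43 ± 0.19, adjusted p = 0.00159). Without control 4 the number that rose was 3.

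Pitx1 and Tbx4 mark the hindlimb in the embryo, and Tbx5 the forelimb. Pitx1 was at 16.7, 15.3 and 9.17 CPM in control and at 11.6, 19.1, 7.31 and 11.3 CPM in MIA, with wide overlap (adjusted p = 0.74). Tbx4 was at 5.19, 5.72 and 3.69 CPM in control and at 1.98, 1.72, 0.162 and 1.90 CPM in MIA. Its groups did not overlap, but it did not pass (−1.75 ± 0.65, adjusted p = 0.0603), whereas it did without MIA 3 (−1.39, 0.0123), with DESeq2 (−1.79, 0.0176), limma-voom (−2.21, 0.0422) and limma on log2(FPKM + 1) (0.0374), and with scaling on fibroblast genes (−2.89, 0.00364). Tbx5, the forelimb gene, was also counted, at 3.03 to 4.14 CPM in control and 0.812 to 4.15 CPM in MIA (adjusted p = 0.754).

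Polycomb group proteins keep silent Hox genes closed and Trithorax group proteins keep active ones open. Of 24 tested genes of these groups 2 rose and 3 fell (20.8% called, against 40.9% of all genes; median log2 change −0.04, against 0.07). Cbx7, a chromobox subunit of Polycomb complex 1, was at 94.8, 80.8 and 106 CPM in control and at 8.20, 18.6, 18.5 and 17.3 CPM in MIA, 5.99-fold lower (−2.58 ± 0.29, adjusted p = 0.00101). Ezh1, a histone H3 methyltransferase of Polycomb complex 2, was 2.40-fold lower (adjusted p = 0.00206), and its paralog Ezh2, chosen after its values were seen, was at 0.30 ± 0.22 (adjusted p = 0.3). Phc1 was 1.75-fold lower (−0.81 ± 0.16, adjusted p = 0.0063), but not with library totals (−0.37, 0.0964) or limma on log2(FPKM + 1) (−0.34, 0.122).

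Retinoic acid and the Cdx factors switch on Hox genes in the embryo. Of 12 tested genes of that list 1 rose and 1 fell (16.7% called, against 40.9% of all genes; median log2 change −0.09, against 0.07). Crabp2, which carries retinoic acid to its receptors, was at 17.1, 22.1 and 10.1 CPM in control and at 137, 95.9, 105 and 110 CPM in MIA, 6.81-fold higher (2.77 ± 0.29, adjusted p = 0.000948). Rxra, a retinoid X receptor, was 2.31-fold lower (−1.21 ± 0.18, adjusted p = 0.00228). Aldh1a1, a retinaldehyde dehydrogenase, was at 171, 89.7 and 314 CPM in control and at 7.07, 0.638, 77.8 and 10.6 CPM in MIA. It did not pass (−2.99 ± 1.19, adjusted p = 0.0759), but did without MIA 3 (−4.96, 0.00728), with limma-voom (−4.30, 0.0255), with limma on log2(FPKM + 1) (0.0307) and log2(FPKM + 0.1) (0.0416) and with scaling on fibroblast genes (−3.73, 0.0315). It was at 0.081 with the muscle covariate (0.961).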

How the data were processed

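RNA of 7 synovium libraries, made from 1.5 µg of RNA each, was analysed. Per the file headers, the deposited table holds, for each gene, raw counts and the authors' FPKM of every library. Named without roles in the submitters' processing notes are the build Rnor_6.0 and the tools DESeq2 1.26.0, HTSeq 0.11.2 and HISAT2. The sources used here do not state the strand setting, so antisense and overlapping transcripts, frequent in Hox clusters, cannot be told apart in the counts. The p-values of the F test set the difference between the groups against the spread between these libraries within a group. No columns were left unmapped.

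Counts were tested on the whole table in R 4.3.3 with edgeR 4.0.16: filterByExpr by group (14054 genes kept), TMM factors, quasi-likelihood F test, Benjamini-Hochberg, called at an adjusted p under 0.05. SE was taken as |log2 change| over the root of the F statistic. The common biological coefficient of variation was 36.7%. Tested Hox rows had 5 to 735 counts in a library, so the low ones carry large counting error. The members, the lists and the tests were chosen with earlier results of these data known; named genes were all Hox rows, the 3 tested genes with the smallest p of each list, and Tbx4, Pitx1 and Tbx5. Alternatives tried were size factors by median of ratios, no factors (library totals), TMM from which muscle, blood and mitochondrially encoded genes were left out, scaling on 16 fibroblast genes, DESeq2 1.42.0, limma-voom and limma 3.58.1 on log2(FPKM + 1) and log2(FPKM + 0.1), no filter, a filter of 1 CPM in 3 libraries, a replicate block, muscle or adipocyte level as a covariate, and each library left out. Promoters came from RefSeq GRCr8, which is not the build of the counts and served also for gene names and overlaps. Protein sequences were not used here. Not every untested Hox gene is reported by name here. Figures were drawn with Python 3.11.15 and matplotlib 3.10.9.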

Additional observations from a re-analysis of the deposited data

Results flagged for a closer look

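In the MIA group of 4 rats, 37 named genes were screened for a library standing apart from the others by Dixon's criterion at the 95% level, which chance meets in about 1 group in 20; 4 met it. Hoxb9 was at 4.01 CPM in MIA 4 against 2.11 to 2.40 CPM in MIA 1 to 3. Tbx4 was at 0.162 CPM in MIA 3 against 1.72 to 1.98 CPM. Cbx7 was at 8.20 CPM in MIA 1 against 17.3 to 18.6 CPM, all far below the controls. Aldh1a1 was at 77.8 CPM in MIA 3 against 0.638 to 10.6 CPM.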

How the results depend on the processing

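Of the 8 called Hox genes, the direction held in all 20 alternatives, and the call of Hoxc10 in all 20, of Hoxc6, Hoxc9 and Hoxc11 in 19 each (not with the muscle covariate), of Hoxa4 in 15, of Hoxc4 in 14, of Hoxc5 in 12 and of Hoxd10 in 10. The cause of the changes below was not tested. The median log2 change of all genes shifted by 0.44 when library totals were used, by 0.29 and 0.40 for limma on log2(FPKM + 1) and log2(FPKM + 0.1), by 0.19 without a filter and −1.03 with scaling on fibroblast genes, of which 9 of 16 rose in MIA; 52.1% of all calls were higher, and 78.1%, 75.5%, 76.7% and 8.98% with library totals, both FPKM fits and the fibroblast scaling. With the muscle covariate 1269 genes were called higher and 1003 lower, against 2998 and 2753. Muscle level did not overlap between the groups, so that fit cannot tell muscle level from group.

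Hox genes that rose numbered 1, and 2 with library totals, 3 with each limma fit on FPKM, 0 with limma-voom, without a filter, with scaling on fibroblast genes and with the muscle covariate, and 0 to 1 with a library left out. Hox genes that fell numbered 7, and 15 with scaling on fibroblast genes. They numbered 1 when the muscle level was a covariate and 4 when the adipocyte level was. With library totals 5 fell, and 5 to 8 with a library left out. The limma fits on log2(FPKM + 1) and log2(FPKM + 0.1) gave 6 and 5.

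The replicate block, possible for libraries 2 to 4 of both groups, gave 4 that fell (without Hoxa4, at −1.59 with adjusted p = 0.0668, Hoxc4, at −1.18 with 0.0605, and Hoxc5, at −1.36 with 0.101), 2 cofactor genes that rose and 1 Polycomb and Trithorax gene that rose, and Hoxb3 at 0.017; over all genes it called 2209 higher and 2242 lower, against 2526 and 2244 in the same 6 libraries without it. Same-numbered libraries deviated together with correlations of 0.30, 0.11 and 0.03, and control 4 correlated best with MIA 3 (0.20), so the numbers are not taken to pair the rats.

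Cofactor genes that rose numbered 1, and 3 with library totals or DESeq2, 2 with each limma fit on FPKM, and 0 with fibroblast scaling or the muscle covariate; those that fell numbered 1, 5 with fibroblast scaling and 1 to 2 with a library left out. Limb factors that rose numbered 6, 1 with fibroblast scaling, 3 with the muscle covariate and 3 to 6 with a library left out; those that fell 3, and 7 with fibroblast scaling. Polycomb and Trithorax genes that rose numbered 2, 5 with library totals and each limma fit on FPKM, 0 with fibroblast scaling or the muscle covariate, 1 with limma-voom or the adipocyte covariate and 1 to 2 with a library left out; those that fell 3, and 16 with fibroblast scaling. Retinoic acid and Cdx genes that rose numbered 1, and 2 with library totals and each limma fit on FPKM; those that fell 1, 8 with fibroblast scaling, 3 with limma-voom, 2 with each limma fit on FPKM or the muscle covariate and 1 to 2 with a library left out.

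Signs changed as follows. For library totals, the limma fit with 1 added to FPKM and the one with 0.1 added, in that order, the log2 change was 0.38, 0.12 and 0.20 for Hoxd3, 0.16, 0.12 and 0.16 for Hoxd4, 0.29, 0.20 and 0.27 for Hoxb3, 0.0084, 0.0064 and 0.013 for Hoxb2, 0.14, 0.071 and 0.11 for Hoxc8, 0.19, 0.056 and 0.020 for Tbx5 and 0.26, 0.21 and 0.24 for Pitx1. With fibroblast scaling it was −0.71 for Hoxd9, −0.39 for Hoxb9, −0.14 for Hoxb8, −0.78 for Hoxb7, −0.66 for Hoxd8, −0.28 for Meis2 and −0.13 for Pbx3. With the muscle covariate it was 0.25 for Hoxd3, 0.0063 for Hoxb3, 0.031 for Hoxc8 and 0.081 for Aldh1a1, and with the adipocyte covariate 0.61 for Hoxd3, 0.11 for Hoxd4, 0.10 for Hoxb3 and 0.0069 for Tbx5. With a library left out it ran from −0.69 to 0.39 for Hoxd3, −0.30 to 0.075 for Hoxb3, −0.13 to 0.62 for Hoxb7, −0.034 to 0.61 for Hoxd9, −0.44 to 0.0044 for Pitx1 and −0.39 to 0.078 for Tbx5. The paralog ratios then ran from −0.37 to 0.38 for Hoxd3 to Hoxb3, −0.050 to 0.60 for Hoxd4 to Hoxb4 and −0.067 to 0.58 for Hoxc4 to Hoxa4.

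As shares of summed counts in place of FPKM, cluster A was 3.58% in control and 2.98% in MIA (4.79% and 3.75% of FPKM), cluster B 31.4% in MIA (36.2%), anterior genes 7.85% and 11.5% (6.35% and 8.96%), central genes 50.3% in MIA (55.8%) and posterior genes 38.2% in MIA (35.3%).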
